A study of Mus musculus with 4 samples.

Results

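The 10 genes described here, Ltf, Muc1, Wfdc2, Spink1, Hdc, Cbr2, Slpi, Muc4, Plekhs1 and Fads2b, encode secreted proteins, surface mucins and enzymes of glandular epithelium. They were chosen by name, and proposed after values of the same arrays had been seen, and together they hold 11 of the 44170 targets on the arrays and 10 of the 24171 genes. The array annotation writes Spink1 as Spink3, Plekhs1 as 9930023K05Rik and Fads2b as 4833423E24Rik. Plekhs1 has 2 targets and each of the other 9 genes has 1. The 4 arrays were labelled as Neuro2a (N2a) cells, a line from a mouse neuroblastoma grown in medium with serum. Of these, 2 arrays carried RNA of cells transfected with scramble siRNA, labelled as control, and 2 carried RNA of cells transfected with siRNA against Men1, labelled as knockdown. No Men1 siRNA sequence, dose or time after transfection is given in the sources used here. Nothing in the labels says that the replicates were separate cultures, so the spread between them may be technical.

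Glandular epithelia line ducts and cavities and release fluid that lubricates, traps and kills microbes, and restrains proteases. Their mucins are heavily glycosylated proteins held at the apical surface, and small cysteine-rich inhibitors of the WAP (whey acidic protein) and Kazal families protect the lining from serine proteases. In the mouse, lactoferrin is a classical oestrogen-induced product of the uterine epithelium, and Muc1 covers the uterine lumen. None of these genes is a defining gene of neuroblasts.

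Array medians were 146.0 and 151.2 for the scramble group and 145.9 and 147.2 for the Men1 group, in intensity units on a linear scale. Intensities are given below as the pair with scramble siRNA (replicates 1 and 2) against the pair with Men1 siRNA. Control spots of random sequence read 42.8 to 52.3, and 100 was used as the lower limit of a measured level, because the value table of the series lists the same 20620 targets that were at 100 or more on every array. The brighter of the 2 Men1 targets read 6985 and 6222 against 2764 and 4109. Its log2 change of −0.97 ± 0.36 (SE of that target's own fit, n = 2 arrays per group) did not pass in limma (adjusted p = 0.314). The other target read 3843 and 3824 against 2989 and 3802, a log2 change of −0.19 ± 0.33 (SE of its own fit). Both targets were lower without overlap, as were 21.7% of all genes. For this other target the lowest scramble siRNA array was only 1.006 times the highest Men1 siRNA array. For the cell type on the labels, the neuroblast genes Chga and Chgb read between 3177 and 6539 on all 4 arrays. All 9 pan-neuronal markers measured and all 6 forebrain markers measured were at 100 or more on every array, as were the alpha globin gene Hba-a1 (5462 to 15453) and the beta globin gene Hbb-b1 (7273 to 23472). Whether the RNA came only from the cells on the labels was not tested.

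On the scramble siRNA arrays 9 of the 10 genes were above 100 on both arrays, Muc4 being the exception. In the Men1 siRNA group, 8 of the 10 were lower on both arrays than on either scramble siRNA array, 1 (Slpi) was higher on both, and 1 (Muc4) overlapped. Over all 24171 genes, 21.7% were lower and 25.8% higher without overlap. The limma fit called 94 of the 24171 (0.389%), 0.352% lower and 0.0372% higher, and 3435 had an unadjusted p under 0.05. Counts given below for lists of genes and for neighbours are to be read beside these. At such a share, a count of 0 called in a short list is no sign that its genes stayed the same. The 8 lower genes had log2 changes (Men1 siRNA minus scramble siRNA) from −6.23 to −3.23, and the 10 genes had a median of −4.71 beside 0.06 for all genes measured. A log2 change of −3 or lower was found for 0.65% of all genes, and for 1.12% of the genes at 100 or more on both scramble siRNA arrays. These values are a description, because the genes were proposed with this difference known, and none of them was tested. As labelled, the RNA came from N2a cultures, and it was measured in bulk. Fewer cells that make these transcripts and less transcript per cell therefore cannot be told apart.

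**Figure D1:**
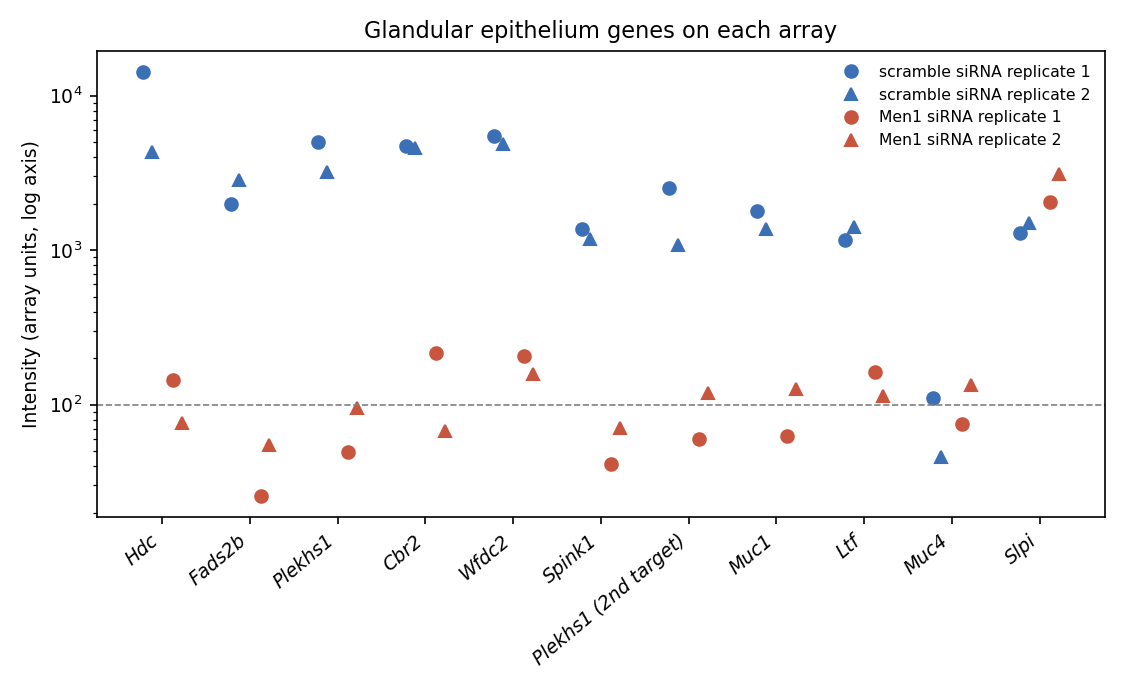
Intensity (log axis) of each of the 11 targets on each array, with blue for scramble siRNA, red for Men1 siRNA, circles for replicate 1 and triangles for replicate 2; the dashed line marks an intensity of 100. The blue points of 8 genes sit at 1084 or more and their red points at 215 or less, whereas Muc4 stays near the line in both groups and Slpi is higher with Men1 siRNA.

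Among the secreted proteins, Ltf (gene ID 17002, chromosome 9, 110921812 to 110944817 on build MM9) encodes lactoferrin, an iron-binding antimicrobial protein. Its target measured 1171 and 1406 against 164 and 114, a log2 difference of −3.23 ± 0.35 (standard error here and below, 2 arrays per group). This was the smallest difference of the 8, and the lowest scramble siRNA value was still 7.15 times the highest Men1 siRNA value. Lactoferrin is also stored in neutrophil granules. Of 13 neutrophil markers 0 passed in limma, where 0.389% of all genes did. At an unadjusted p under 0.05, 3 were higher and 0 lower, and 11 of the 13 had at least 1 scramble siRNA array under 100. The intensities of the 13 summed to 1143 to 1288 with scramble siRNA and to 1696 to 2231 with Men1 siRNA. The granule gene Ngp read 35.0 and 41.9 against 44.9 and 329, Mpo read 242 and 51.3 against 54.4 and 66.6, and Ly6g, lower without overlap, read 260 and 47.0 against 41.8 and 36.9. The part of neutrophils in the Ltf values was not tested.

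Spink1 (gene ID 20730, chromosome 18, 43887735 to 43896850 on MM9) encodes a Kazal-type inhibitor of trypsin. It read 1378 and 1179 against 41.0 and 70.7. Both Men1 siRNA arrays were under 100, so the level there has only a bound, and the scramble siRNA level was at least 12.7-fold higher. None of the 8 other Kazal inhibitor genes measured reached 100 on both scramble siRNA arrays. In limma 0 of the 8 passed, with 1 higher (Spink10, 89.7 and 82.6 against 169 and 161) and 0 lower at an unadjusted p under 0.05. Spink7 and Spink13, next by p, had adjusted p-values of 0.593 and 0.489.

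Wfdc2 and Slpi encode small secreted proteins with WAP domains, and they went in opposite directions. Wfdc2 (gene ID 67701, chromosome 2, 164388224 to 164394007 on MM9), whose product is known as HE4, read 5520 and 4895 against 207 and 157. The log2 change was −4.85 ± 0.33 (SE), with every array above 100 and replicates within 1.32-fold of each other in both groups. Slpi (gene ID 20568, chromosome 2, 164179805 to 164182243 on MM9) encodes the secretory leukocyte peptidase inhibitor, which blocks neutrophil elastase. It read 1288 and 1492 against 2050 and 3092. Its log2 change was 0.86 ± 0.36, and the lowest Men1 siRNA array was 1.37 times the highest scramble siRNA array. Slpi is made by myeloid cells as well as by epithelia, and the granulocyte genes S100a8 (159 and 133 against 303 and 477) and S100a9 (130 and 245 against 334 and 433) were higher on both Men1 siRNA arrays without passing in limma (adjusted p = 0.217 and 0.340). Of the 13 neutrophil markers, 7 were higher and 1 lower (Ly6g) without overlap, where 25.8% and 21.7% of all genes were. The lysozyme gene Lyz2 was lower without overlap (5917 and 4526 against 2150 and 3541). The part of myeloid cells in the Slpi difference was not tested.

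The 250 bases upstream of the RefSeq start of each gene (build GRCm38.p6) are shown for this pair because the genes share a fold and a chromosome and differ in direction. Capitals mark matches, on either strand, to any of the 10 motifs searched. The Wfdc2 stretch is chr2:164562465-164562714 on the plus strand and the Slpi stretch is chr2:164356508-164356757 on the minus strand, each written 5′ to 3′ along its gene.
Wfdc2: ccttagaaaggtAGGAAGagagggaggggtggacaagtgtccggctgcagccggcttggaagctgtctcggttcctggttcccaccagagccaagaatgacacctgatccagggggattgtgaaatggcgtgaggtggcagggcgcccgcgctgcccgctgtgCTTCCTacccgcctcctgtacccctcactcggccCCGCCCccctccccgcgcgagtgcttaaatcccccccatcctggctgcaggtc
Slpi: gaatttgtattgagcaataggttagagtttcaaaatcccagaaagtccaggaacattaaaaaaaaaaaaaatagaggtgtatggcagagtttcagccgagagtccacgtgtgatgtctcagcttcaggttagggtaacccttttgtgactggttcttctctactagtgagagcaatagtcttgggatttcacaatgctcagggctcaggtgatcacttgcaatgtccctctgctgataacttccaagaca
The Wfdc2 stretch holds AGGAAG (the core bound by ETS factors) once on each strand and GGGCGG (the GC box) once, and 64.8% of its bases are G or C. The Slpi stretch holds none of the 10 motifs, as do 23.1% of all 27025 promoters searched, and its G and C content is 42.0%.

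On MM9 the Slpi and Wfdc2 targets start 208.4 kb apart, in the region of chromosome 2 that holds most genes of the WAP family. Of the 8 genes measured between them 2 were lower and 1 higher without overlap, and none passed in limma. The lowest of the 8 was Sdc4, the gene of the cell surface proteoglycan syndecan 4, with 913 and 543 against 136 and 352, a log2 change of −1.68. Eppin, a WAP and Kunitz domain inhibitor gene whose target starts 25624 bases beyond that of Wfdc2, read 165 and 116 against 56.6 and 70.6 (limma adjusted p = 0.269). Within 200 kb of either gene the other genes lay between −1.71 and 1.68. Taking all 10 genes, 116 other genes had a target starting within 200 kb of one of them. Of these 116 neighbours 0 passed in limma, where 0.389% of all genes did. An unadjusted p under 0.05 was found for 24 of the 116 and for 3435 of all 24171 genes. Without overlap 33 neighbours were lower and 25 higher, where 21.7% and 25.8% of all genes were, and the median log2 change was 0.0035.

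**Figure D2:**
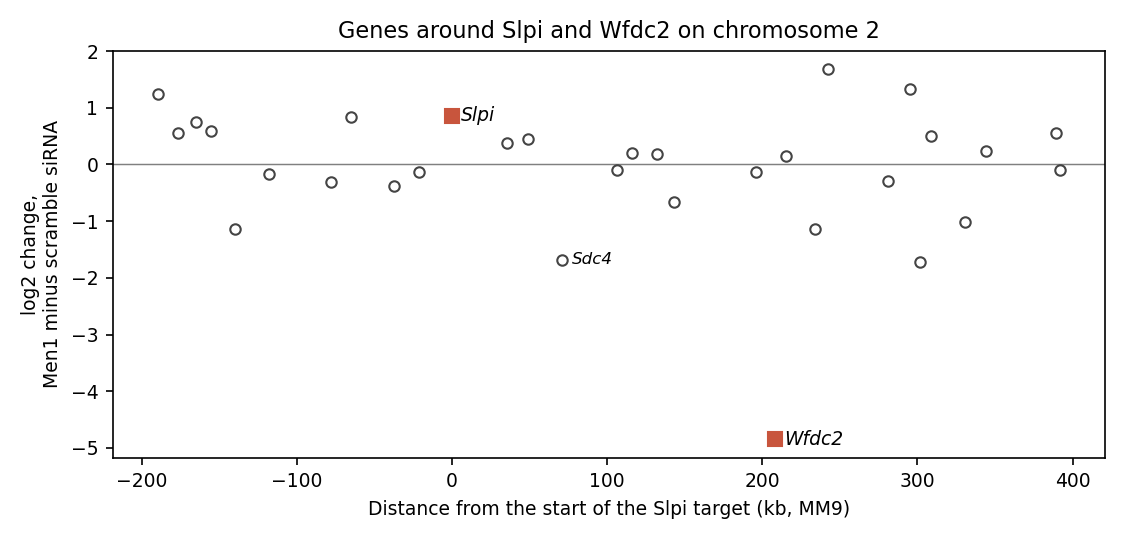
Log2 change (Men1 siRNA minus scramble siRNA) of Slpi, Wfdc2 (red squares) and the 29 other genes with a target starting within 200 kb of either (open circles), against the distance in kb from the start of the Slpi target. Wfdc2 lies at −4.85, the other genes lie between −1.71 and 1.68, and Sdc4 is labelled.

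The other 15 WAP-domain genes measured had a median log2 change of −0.17, and 0 passed in limma, with 5 lower and 1 higher at an unadjusted p under 0.05. Wfdc1 had the lowest change among them. Its brightest target read 1573 and 570 against 85.1 and 66.2, at least 9.47-fold lower (limma adjusted p = 0.0839). Wfdc10 read 74.9 and 141 against 28.4 and 34.5 (adjusted p = 0.186). Of the 15, 5 were at 100 or more on both scramble siRNA arrays and 5 were under 100 on all 4 arrays.

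Muc1 (gene ID 17829, chromosome 3, 89033006 to 89037299 on MM9) encodes a transmembrane mucin of the apical surface. It read 1799 and 1365 against 62.4 and 127, a log2 change of −4.14 ± 0.45 (SE). Because 1 Men1 siRNA array was under 100, the size of that change is less certain than its direction. Muc4 (gene ID 140474, chromosome 16) encodes another transmembrane mucin, a partner of the receptor ErbB2. Its only target, a testis cDNA placed at 32776368 to 32782476 on MM9, read 111 and 45.9 against 75.2 and 134. Each group had 1 array on either side of 100 and the groups overlapped, so no level above background and no direction can be given for Muc4. Without scramble siRNA replicate 2 the log2 change was −0.15 and without scramble siRNA replicate 1 it was 1.13.

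Most other mucin genes were dim. Of 9 measured, 4 reached 100 on both scramble siRNA arrays and 0 passed in limma, with 1 lower (Mucl1) and 1 higher (Muc3) at an unadjusted p under 0.05. Muc3 read 65.1 and 50.03 against 189 and 110, at least 1.44-fold higher with Men1 siRNA (limma adjusted p = 0.254). Mucl1 read 285 and 67.4 against 29.1 and 45.3, and Muc19 read 139 and 171 against 194 and 359 (adjusted p = 0.324 and 0.456). Of 23 genes of mucin-type O-glycosylation, the enzymes that build the sugar chains on mucins, 1 fell and 0 rose in limma, where 0.389% of all genes were called in either direction, 0.352% lower and 0.0372% higher. That gene was Gcnt3, whose product branches mucin glycans, with 919 and 714 against 58.9 and 49.8, at least 8.10-fold lower (limma adjusted p = 0.0346). The median of the 23 was −0.47, and 22 did not pass.

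Hdc (gene ID 15186, chromosome 2, 126419395 to 126444387 on MM9) encodes histidine decarboxylase, which makes histamine. It read 14235 and 4306 against 143 and 75.6. The change was −6.23 ± 0.66 on the log2 scale (SE), with 1 Men1 siRNA array under 100, and 1 of all 24171 genes had a lower one. The 2 scramble siRNA arrays were 3.31-fold apart, which is unusual: 1.35% of the genes at 100 or more on both of these arrays differed by 3-fold or more. Without scramble siRNA replicate 2 the change was −7.09, and without replicate 1 it was −5.37. Of the 11 other genes of histamine handling and amine synthesis measured 0 passed in limma, with 1 lower (Csad) and 3 higher at an unadjusted p under 0.05. Hrh3, the histamine receptor of neurons, read 168 and 136 against 320 and 355 (adjusted p = 0.227). Csad, which decarboxylates cysteine sulfinate, read 1532 and 762 against 384 and 439, and Slc22a2, a transporter of organic cations, read 37.3 and 43.2 against 74.6 and 151 (adjusted p = 0.264 for both).

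Mast cells also make histamine. Of 11 mast cell markers 0 passed in limma (1 higher and 0 lower at an unadjusted p under 0.05), and 6 of the 11 were under 100 on all 4 arrays (Cpa3, Mcpt2, Mcpt4, Tpsab1, Fcer1a and Ms4a2). Kit and the protease gene Mcpt1 (137 and 120 against 155 and 253) were above 100 on all 4, and Cma1, Tpsb2 and Hpgds were above 100 on at least 1 array. The 11 summed to 3559 to 4792 with scramble siRNA and to 2512 to 3245 with Men1 siRNA, most of it from the receptor gene Kit (3068 to 4137 against 1672 to 2472). The part of mast cells in the Hdc values was not tested.

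Cbr2 (gene ID 12409, chromosome 11, 120590802 to 120593295 on MM9) encodes a carbonyl reductase first known from lung. It read 4697 and 4573 against 215 and 67.6, a log2 change of −5.26 ± 0.58 (SE). Its scramble siRNA arrays were within 1.03-fold of each other and its Men1 siRNA arrays 3.19-fold apart, with the lower under 100. Without Men1 siRNA replicate 1 the change was −6.10, and without Men1 siRNA replicate 2 it was −4.43. Of 16 other reductases of this kind 0 passed in limma, with 5 lower and 0 higher at an unadjusted p under 0.05, and the median log2 change was −0.24. Dhrs4 (2159 and 1598 against 512 and 677), Cbr3 (1019 and 811 against 288 and 420) and Dcxr (1676 and 1009 against 344 and 546) had adjusted p-values of 0.153, 0.208 and 0.217 in limma.

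Fads2b (gene ID 228151, chromosome 2, 85324248 to 85359092 on MM9) belongs to the fatty acid desaturase family. It read 1992 and 2833 against 25.8 and 54.9, at least 23.8-fold lower, since both Men1 siRNA arrays were under 100. The 16 other desaturase and elongase genes measured had a median log2 change of 0.33, and 0 passed in limma, with 3 lower and 2 higher at an unadjusted p under 0.05. Among them Fads2, a desaturase gene of polyunsaturated fatty acid synthesis, read 4340 and 7608 against 10225 and 7500, and those groups overlapped. Degs2, a ceramide hydroxylase gene, had the smallest p of the list (730 and 643 against 163 and 210, limma adjusted p = 0.104), and Elovl2, which extends polyunsaturated fatty acids, was higher on both Men1 siRNA arrays (166 and 196 against 495 and 457, adjusted p = 0.164). Elovl1, which extends saturated chains, read 1177 and 803 against 358 and 351 (adjusted p = 0.182).

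Plekhs1 (gene ID 226245, chromosome 19, 56536129 to 56561215 on MM9) encodes a protein with a pleckstrin homology domain. Its brighter target, from a vagina cDNA per the array annotation, read 4988 and 3225 against 49.5 and 94.9, at least 40.1-fold lower. The other target read 2524 and 1084 against 59.6 and 119, a log2 change of −4.29. Both targets separated the groups, by 34.0-fold and 9.08-fold from the lowest scramble siRNA to the highest Men1 siRNA array.

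The upstream stretches of Hdc and Fads2b are shown because they share both motifs found in Wfdc2. Capitals again mark any of the 10 motifs; the Hdc stretch is chr2:126618679-126618928 and the Fads2b stretch is chr2:85518936-85519185, both on the minus strand of GRCm38.p6.
Hdc: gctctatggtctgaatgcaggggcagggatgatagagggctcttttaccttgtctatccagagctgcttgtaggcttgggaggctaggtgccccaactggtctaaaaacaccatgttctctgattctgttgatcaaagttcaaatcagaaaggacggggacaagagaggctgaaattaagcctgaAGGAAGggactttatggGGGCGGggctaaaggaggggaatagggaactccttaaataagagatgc
Fads2b: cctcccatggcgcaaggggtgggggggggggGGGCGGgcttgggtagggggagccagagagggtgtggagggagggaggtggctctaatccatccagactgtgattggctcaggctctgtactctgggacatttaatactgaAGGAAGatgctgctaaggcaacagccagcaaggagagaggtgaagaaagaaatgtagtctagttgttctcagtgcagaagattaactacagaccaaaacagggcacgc
Of the 10 genes, 9 had a promoter sequence in the RefSeq table used (Spink1 was the other). AGGAAG was found in 6 of the 9 (Ltf, Wfdc2, Hdc, Cbr2, Plekhs1 and Fads2b), against 29.2% of all 27025 promoters of the same length, and GGGCGG in 4 of the 9 against 32.9%. Both together were in 3 of the 9 against 8.41% of all promoters. AACCNGTT, the grainyhead motif, was in Muc1 and Plekhs1 (1.71% of all promoters), and TATAAA was in Muc1 and Muc4 (13%). AGGTCA, the nuclear receptor motif, and AGATAA, the GATA motif, were in Ltf alone of the 9 (13.8% and 10.3% of all promoters). TGANTCA (AP-1), the forkhead motifs TGTTTAC and TGTTTGC, and the palindromic oestrogen response element were in none of the 9, against 6.87%, 3.09%, 4.3% and 0.0629% of all promoters. These are matches of letters within 250 bases, and they say nothing of binding.

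**Figure D3:**
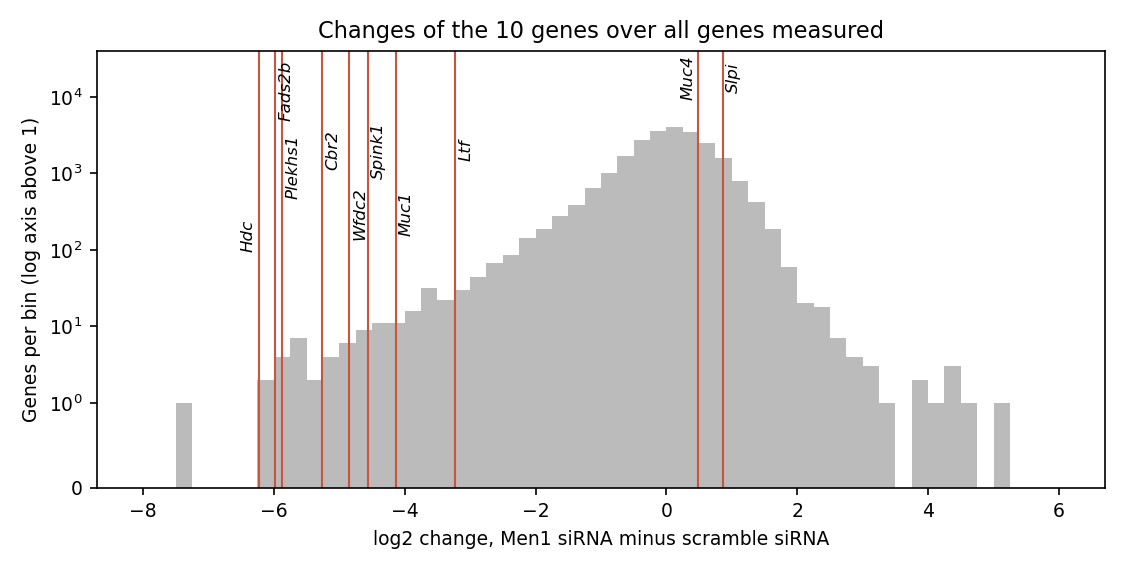
Number of genes (log axis above 1) by log2 change, Men1 siRNA minus scramble siRNA, in bins of 0.25 over all 24171 genes, with a red line at each of the 10 genes. The 8 lower genes lie in the left tail between −6.23 and −3.23, and Muc4 and Slpi lie at 0.49 and 0.86 within the bulk.

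Within the 8 lower genes, the replicates of a group had no common order. Scramble siRNA replicate 1 was above replicate 2 for 6 of the 8, where 44.6% of all genes had that order, and Men1 siRNA replicate 1 was above replicate 2 for 4 of the 8, against 50.3%. Of the 16 Men1 siRNA values of these genes 9 were under 100, both values for Spink1, Plekhs1 and Fads2b and 1 value for Muc1, Hdc and Cbr2. Among all genes at 100 or more on both scramble siRNA arrays, 3.27% had both Men1 siRNA arrays under 100 and 9.71% had at least 1. Ltf and Wfdc2 were the 2 lower genes measured above 100 on every array, so their changes of −3.23 and −4.85 do not rest on values under that limit. Background may still affect their size. With Men1 siRNA, Ltf read 164 and 114 and Wfdc2 207 and 157, where control spots of random sequence read 48.1 and 52.3. A pseudocount of 32 gave changes of −2.96 and −4.62.

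Over all genes, 23 had a lower change than Wfdc2 and 128 a lower one than Ltf. The order of the other 6 lower genes rests on values under 100. With values under 100 set to 100, Fads2b moved from −5.98 to −4.57, Plekhs1 from −5.87 to −5.33 and Spink1 from −4.56 to −3.67, so that Fads2b came after Plekhs1, Cbr2 (−4.98) and Wfdc2. Of the 7 steps between neighbours in the order as measured, 6 were no larger than the combined standard error of the 2 genes. The step from Muc1 to Ltf, 0.91 on the log2 scale beside a combined error of 0.57, was larger, but Muc1 was at −3.80 with the floor. The 4 arrays were also used to find the genes whose pattern was most like the median centred profile of the 10. Of 12261 genes at 100 or more on both scramble siRNA arrays with a gene symbol that is no clone name, the nearest by root mean square difference over the 4 arrays (log2 units) included Sprr2e (0.08), Sprr2h (0.10), Col1a1 (0.18), Col6a1 (0.18) and Hoxa10 (0.19). Sprr2e, a small proline-rich protein gene of epithelial surfaces, read 7790 and 6303 against 294 and 302. The 10 genes themselves lay between 0.20 (Spink1) and 2.75 (Slpi) from it.

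Epithelial markers moved with the 8 lower genes. All 23 general epithelial markers were at 100 or more on both scramble siRNA arrays, 22 were lower on both Men1 siRNA arrays and Prom1 overlapped, with a list median of −3.36. In limma 7 of the 23 fell and 0 rose, where 0.352% of all genes were called lower and 0.0372% higher. Krt8 and Krt18, the keratin pair of simple epithelia, read 1905 and 1977 against 135 and 171 and 9975 and 6196 against 270 and 458 (adjusted p = 0.0346 and 0.0364). Cdh1, the gene of E-cadherin, read 2865 and 1838 against 75.4 and 126, and Ap1m2, which sorts proteins to the basolateral side, read 3619 and 2880 against 281 and 295 (adjusted p = 0.0347 for both). The summed intensity of the 23 was 46428 to 62161 with scramble siRNA and 6509 to 9012 with Men1 siRNA. The part of a changed share of epithelial cells in the values of the 10 genes was not tested.

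Genes of the female reproductive tract epithelium were lower too. Of 19 measured, 14 were lower and 0 higher without overlap, with a median log2 change of −2.19, and in limma 1 fell and 0 rose. Over all genes 21.7% were lower and 25.8% higher without overlap, and 0.352% were called lower. The gene that fell was Padi2, a peptidylarginine deiminase gene. Its brightest target read 887 and 625 against 54.1 and 69.0, at least 7.45-fold lower (limma adjusted p = 0.0365). Its other targets were at least 3.27-fold and 3.73-fold lower. Esr1, the oestrogen receptor gene, read 589 and 678 against 158 and 118, and Foxa2, the transcription factor gene of uterine glands, read 64.2 and 110 against 29.7 and 28.9 (limma adjusted p = 0.0846 and 0.198). Of 9 ciliated epithelial markers 0 passed in limma (2 higher and 0 lower at an unadjusted p under 0.05), and their median was 0.33. Of 26 other secreted antimicrobial genes 0 passed (5 lower and 2 higher at an unadjusted p under 0.05), and their median was −0.01. Only 11 of the 26 were at 100 or more on both scramble siRNA arrays, and 10 were under 100 on all 4 arrays. Pigr, which carries antibodies across glandular cells, read 3201 and 2550 against 484 and 717 (adjusted p = 0.0880). Meltf, the melanotransferrin gene, read 356 and 280 against 85.5 and 82.3, and Sftpd, the gene of surfactant protein D, read 117 and 90.7 against 29.6 and 33.9 (adjusted p = 0.0978 and 0.127). Fibroblast markers were lower as well, with 2 of 10 falling in limma (Col1a1 and Col1a2), a list median of −2.30 and sums of 34203 to 37291 against 4491 to 4617. Without overlap 9 of the 10 were lower, but by unequal amounts. Pdgfra read 1347 and 1332 against 1062 and 1065, a log2 change of −0.33. Fap was under 100 on every array and its groups overlapped. The brightest target stood for Col1a2, and its other, dim targets changed by −0.31 and −0.49 with overlapping groups. The part of fibroblasts in the values of the 10 genes was not tested.

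**Figure D4:**
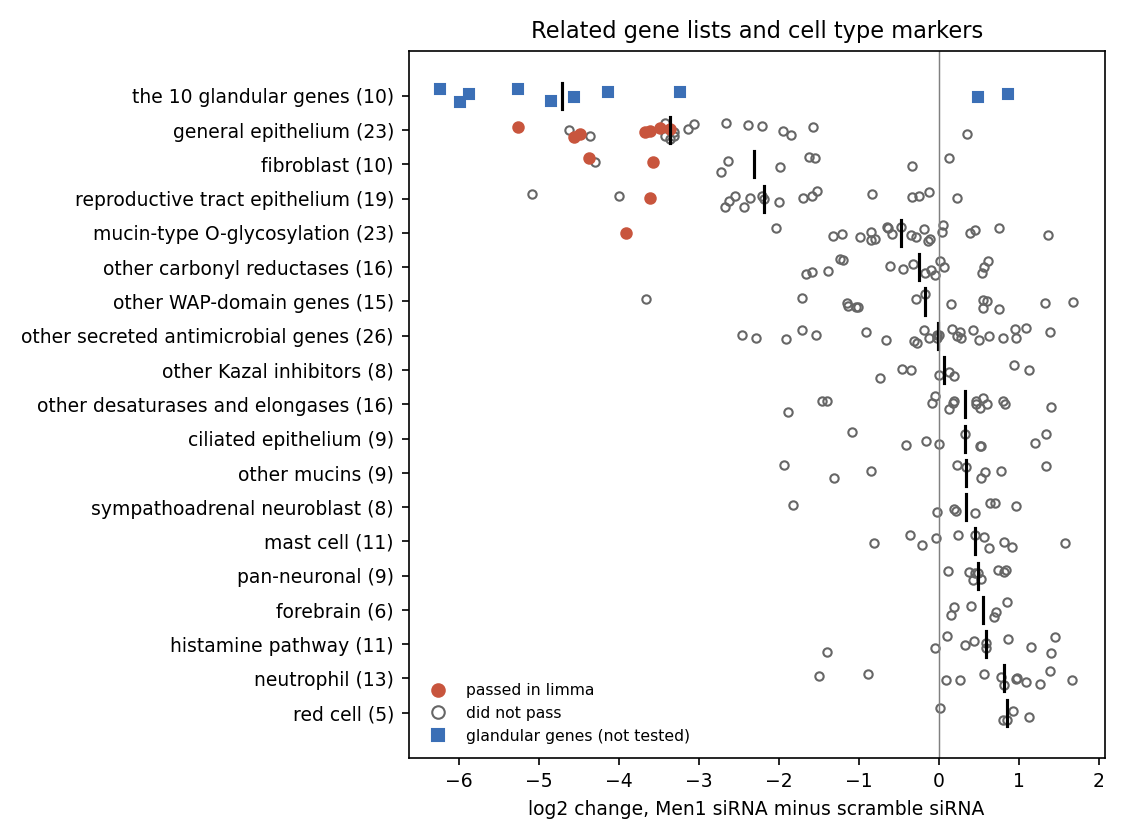
Log2 change (Men1 siRNA minus scramble siRNA) of every measured gene of the 18 lists and of the 10 genes; bars are list medians, filled red circles passed in limma, and the number measured is in brackets. General epithelium, fibroblast and reproductive tract epithelium lists have medians of −3.36, −2.30 and −2.19. The families nearest to the 10 genes by sequence or chemistry have medians between −0.47 and 0.59. Many genes of some families were dim with scramble siRNA and could show no large fall. At 100 or more on both scramble siRNA arrays were 0 of 8 Kazal, 5 of 15 WAP-domain, 4 of 9 mucin and 11 of 26 antimicrobial genes, against 23 of 23 general epithelial markers.

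Of 9 pan-neuronal genes on the same arrays 7 were higher on both Men1 siRNA arrays and 0 lower, where 25.8% and 21.7% of all genes were, with a median of 0.49 and sums of 75530 to 92460 against 106945 to 109805. In limma 0 passed, with 2 higher at an unadjusted p under 0.05. Syt1, the gene of the synaptic calcium sensor synaptotagmin 1, read 1982 and 2513 against 4156 and 3853 (adjusted p = 0.331). Forebrain markers had a median of 0.55 (0 of 6 called, 0 at an unadjusted p under 0.05), and sympathoadrenal markers had a median of 0.34 (0 of 8 called, 1 lower, Gata3, at an unadjusted p under 0.05). Red cell markers had a median of 0.86 (0 of 5 called, 1 higher at an unadjusted p under 0.05). Over the 18 lists 11 of 234 genes passed in limma, all lower, and with any 1 array left out none did, with 65 to 81 at an unadjusted p under 0.05.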

How the data were processed

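Gene expression was measured on 4 single-colour arrays, 2 per group. The authors deposited 1 table per array of linear intensities, 1 value for each target of up to 3 probes, under file names that call them robust multi-array average values; targets carry MM9 positions. How images were scanned and background was removed is not given in the sources used here. An Agilent array is named in the series text, but a NimbleGen protocol in the labels, and the tables have the NimbleGen layout. The image names inside both Men1 siRNA tables carry the number 2, so they do not settle which replicate is which, and the labels were followed. In the series' value table the 2 scramble siRNA columns hold each other's values.

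Symbols were updated through gene IDs (21583 of 24203 matched RefSeq). Tests used log2 of the intensity without a pseudocount, and the target with the highest mean stood for its gene. All 24171 genes were fitted in R 4.3.3 with limma 3.58.1 (lmFit, eBayes, group as the only term, two-sided, Benjamini-Hochberg adjustment, threshold 0.05), after a check on simulated data. An exact permutation test of 2 against 2 arrays cannot give a two-sided p below 0.33. Errors after a log2 change are limma's standard errors. Bounds ("at least") set arrays under 100 to 100. Tables were made with pandas 2.3.3 and numpy 2.4.6 under Python 3.11.15, and plots with matplotlib 3.10.9. Promoters came from RefSeq (GRCm38.p6). The genes and lists were chosen with earlier results of these data known. In each list the rule named the genes past the threshold (up to 4, smallest p first), or else the 3 with the smallest p; for marker lists of other cell types only some of these are printed. Genes given as single values outside it (such as Esr1, Foxa2, Fads2, Ngp, Mpo, Ly6g, Lyz2, Prom1, Cpa3, Mcpt1, Pdgfra, Fap and Chga) were chosen after their values were seen. Some genes that the rules name are not reported here. The number of arrays limits the precision.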

Additional observations from a re-analysis of the deposited data

How the results depend on the processing

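The count of 8 lower genes of the 10 was also 8 under median, quantile and cyclic loess normalization. It was 8 without each array in turn, with a pseudocount of 32 and with a floor at 100. The mean of all targets and a filter on dim genes gave 8 as well. Except under the normalizations, these settings could not lower the count, by construction. The scramble siRNA values of the 8 were 1171 or more, against 215 or less with Men1 siRNA, and both Plekhs1 targets separated the groups. The median log2 change of all 10 ranged from −4.81 to −4.61 without 1 array. In the series' value table, which holds 3 of the 10 genes, 2 were lower and the median was −3.23; fewer genes are the cause by construction. Of 113 single-gene values under alternatives, 106 stayed within the spread between replicates and 7 moved further. Of the 113, 0 turned the direction of a gene whose groups did not overlap. With 1 array left out, a value could not move beyond that spread or turn such a direction, by construction. The filter on dim genes changed no value, and the mean of all targets could change only Plekhs1. The 106 therefore include values that could not have moved. The 94 genes past the threshold in limma (11 in the lists) became 0 and 0 without any 1 array (0 to 0; 2105 to 3357 of all genes at an unadjusted p under 0.05). The cause was not tested for the other settings: 256 and 23 with a pseudocount of 32, 27 and 0 with a floor at 100 (3274 and 61 at an unadjusted p under 0.05), 677 and 38 with a filter on dim genes, 711 and 42 with a trended prior, 418 and 23 in the value table, and 150 with every target tested on its own. With the replicate number as a block the counts were 69 and 9. The numbers carry no stated pairing, and same-numbered deviations correlated at −0.17, so a block with crossed numbers was added after the data were seen, which gave 0 and 0 (3980 and 94 at an unadjusted p under 0.05 in limma).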

Other observations

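The 2 scramble siRNA arrays were far apart in some genes of reproductive tract epithelium. Of the 17 such genes at 100 or more on both of these arrays, 4 were 3-fold or more apart, where 1.35% of all genes at that level were; among the 23 general epithelial markers 1 was. The genes named here were chosen after their values were seen. Alox15, a lipoxygenase gene, read 7662 on scramble siRNA replicate 1 and 753 on replicate 2, and 111 and 45.3 on the Men1 siRNA arrays. Prss28, a serine protease gene of uterine glands, gave 488 and 127 with scramble siRNA against 40.9 and 39.8. The complement gene C3 had the opposite order, 1362 and 5011 with scramble siRNA, against 1267 and 600 with Men1 siRNA. Lcn2, an iron-sequestering secreted protein gene, read 5294 and 3372 with scramble siRNA, and 285 and 2066 on the 2 Men1 siRNA arrays, which were further apart than those of any of the 10 genes described above.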
